A study of Mus musculus with 4 samples.

Results

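Immediate-early genes and genes induced by cell stress were measured as 36 listed mouse genes in RNA from whole pancreatic islets, which hold the insulin- and glucagon-secreting cells. The members were chosen by name, from known early-response and stress genes, with earlier results of these data known. All 36 were found among the 52636 genes of the deposited table. Of these, 33 passed the filter on low counts and were among the 16924 genes tested. Egr4, Dusp2 and Gdf15 did not pass it. The islets came from wild-type mice (2 libraries, called control 1 and control 2) and from mice with the genotype Tspan7 y/-, which carry no working copy of the X-linked tetraspanin gene Tspan7 (2 libraries, called knockout 1 and knockout 2). No other allele or agent is given for either group, and the age, the strain background and the number of animals per library are not stated in the labels. The study's design text speaks of a knockdown where the sample labels give a knockout.

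Immediate-early genes are transcribed within minutes of a stimulus, without the need for new protein, because their promoters are already bound by factors that signalling kinases switch on. In beta cells, calcium entry and cyclic AMP act through CREB, while growth factor and stress kinases act through serum response factor and AP-1. Many of the same genes are known to rise when a tissue is digested, handled or warmed, so in isolated islets their level can reflect the isolation as well as secretory activity.

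The libraries held between 7855665 and 9377220 counts, and a count of 3, taken as the detection floor, stood for 0.310 to 0.396 CPM (counts scaled to a common library total). Levels below are CPM after scaling by the trimmed mean of M-values (TMM), and log2 differences between libraries were taken on log2 CPM with a prior count of 2. Tspan7 measured 227 and 190 CPM in the control libraries against 0.310 and 0.264 CPM in the knockout libraries, so the targeted gene matched the labels in all 4. Islet endocrine markers (14 genes, among them Ins1, Ins2, Gcg and Sst) summed to 25909 to 31556 CPM and were present in every library. Whether each library is a separate animal is not stated, so p-values measure the spread between these libraries, which may be technical. Control 2 and knockout 2 stood apart for the members, at opposite ends, and the acinar cell markers differed 88.4-fold between these libraries. Every result below rests on them, and the log2 fold changes of the main members are given without each of them.

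Promoter letters are shown for a few members because the members moved together across libraries. RefSeq windows on GRCm38.p6 were matched by symbol for 28 of the 36 members, which had 33 windows, since some genes have several. Egr1, Egr3, Fosl1, Arc, Dusp4, Sik1, Crem and Ier2 had no window and are not in the counts below. The 250 bases before the start site were searched on both strands. For the windows of Btg2, Jund, Junb and Socs3 and some of Egr2, bases shortly after the start were not found in the gene's annotated transcripts. Start sites of these windows are therefore uncertain. The cAMP response element TGACGTCA lay in 2 of the 33 member windows (Btg2 and Dusp1) and in 1.55% of all 32841 windows. Its shorter form TGACGT, which the full element contains, lay in 11 of 33 member windows (9 of 28 genes) and 6.47% of all windows. The CArG box, the core of serum response elements, lay in 6 member windows and 1.47% of all windows. These windows belong to 3 of 28 genes (Zfp36, Egr2 and Dusp5). Several windows of Egr2 overlap, so the same Egr2 site entered each of these window counts more than once. The heat-shock element GAANNTTC lay in 4 member windows (Jun, Fosl2, Hspa1a and Hspa1b) and 6.70% of all windows. The windows of Hspa1a and Hspa1b are near-identical, so their matches are not separate observations. The AP-1 element TGACTCA lay in 0 of 33 member windows and 4.46% of all windows. These matches are a description of letters and were not tied to binding. The windows below are printed 5′ to 3′ on the gene's strand with the matched elements in capitals. Npas4 (chr19:4989972-4990221, minus strand), Fos (chr12:85473640-85473889, plus strand) and Dusp1 (chr17:26508473-26508722, minus strand) show cAMP response element letters. Hspa1a (chr17:34972157-34972406, minus strand) and Hspa1b (chr17:34959239-34959488, minus strand) show the heat-shock element.
Npas4: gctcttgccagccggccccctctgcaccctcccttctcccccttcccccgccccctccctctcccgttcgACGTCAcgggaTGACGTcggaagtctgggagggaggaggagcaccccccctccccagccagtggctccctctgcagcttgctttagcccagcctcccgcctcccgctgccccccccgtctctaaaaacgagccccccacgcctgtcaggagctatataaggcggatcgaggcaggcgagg
Fos: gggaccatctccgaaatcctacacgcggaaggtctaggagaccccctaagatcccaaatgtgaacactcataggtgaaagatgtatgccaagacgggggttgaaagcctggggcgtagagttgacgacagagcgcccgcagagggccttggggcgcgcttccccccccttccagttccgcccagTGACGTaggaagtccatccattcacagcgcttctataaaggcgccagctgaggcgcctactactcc
Dusp1: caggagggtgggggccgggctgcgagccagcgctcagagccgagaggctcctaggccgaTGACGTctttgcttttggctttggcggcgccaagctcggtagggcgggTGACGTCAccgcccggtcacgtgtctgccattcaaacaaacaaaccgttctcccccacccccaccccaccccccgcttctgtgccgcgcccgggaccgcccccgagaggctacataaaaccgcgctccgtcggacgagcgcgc
Hspa1a: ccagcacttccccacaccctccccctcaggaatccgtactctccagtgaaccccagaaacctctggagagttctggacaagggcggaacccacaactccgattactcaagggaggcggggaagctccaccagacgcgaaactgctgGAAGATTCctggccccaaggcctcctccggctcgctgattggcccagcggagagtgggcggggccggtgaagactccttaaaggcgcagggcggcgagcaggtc
Hspa1b: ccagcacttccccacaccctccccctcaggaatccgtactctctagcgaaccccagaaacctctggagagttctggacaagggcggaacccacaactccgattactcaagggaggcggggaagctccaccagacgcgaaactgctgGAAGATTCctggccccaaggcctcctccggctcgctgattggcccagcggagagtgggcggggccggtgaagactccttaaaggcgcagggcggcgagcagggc

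In the main test, loss of Tspan7 was not accompanied by a detectable change of any member. Knockout was compared with control by edgeR's quasi-likelihood test with Benjamini-Hochberg adjustment over all genes tested, and 0 of 33 members had an adjusted p under 0.05, beside 0.00591% of all genes (1 gene, Tspan7). Every member had the same adjusted p, 0.9997. DESeq2 and limma-voom also called 0 members, while edgeR with no low-count filter called 1, Npas4 (adjusted p = 0.00223). At an unadjusted p under 0.05, 2 members were higher in knockout (Npas4 and Egr2), or 6.06% beside 1.55% of all genes, and 0 were lower, beside 1.96%. The higher level of Npas4 was already known when the members were listed, so this share cannot be read as an excess. The fitted log2 fold changes (knockout against control) were positive for 29 members and negative for 4, with a median of 0.51. Over all genes the median was 0.003, which the scaling holds near 0. The members' median was 0.071 without knockout 2 and 0.28 without control 2, and 0.94 and 0.92 without control 1 and knockout 1. The median stayed positive in each of these fits, but its size depended on which library of a group was used.

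The spread within groups was larger than the gap between them for most members. The median over members of the larger within-group difference was 1.13 on the log2 scale (0.34 over all genes), against a median gap between group means of 0.44 in absolute size (0.14 over all genes). The gap exceeded both within-group differences in 5 of 33 members (Egr2, Npas4, Crem, Ier3 and Hspa1a), or 15.2% beside 19.1% of all genes. The groups did not overlap with knockout higher in 5 members (Egr2, Npas4, Sik1, Hspa1a and Hspa1b), or 15.2% beside 15.3% of all genes. They did not overlap with knockout lower in 2 members (Crem and Ier3), or 6.06% beside 15% of all genes. These shares were at or below those of all genes.

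**Figure D1:**
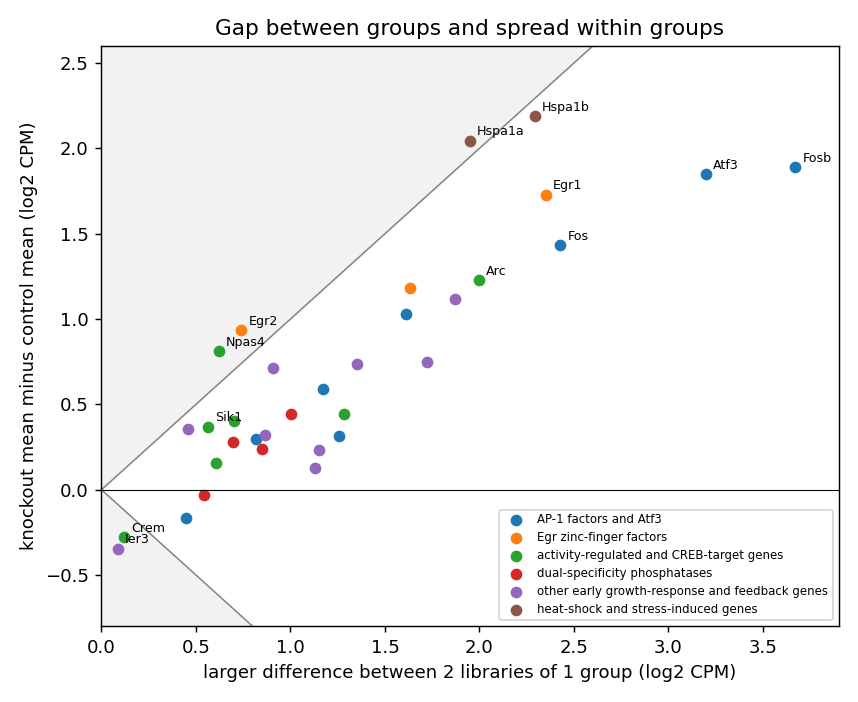
Each point is a tested member, placed by the larger difference between the 2 libraries of a group (x axis, log2 CPM) and by the knockout mean minus the control mean (y axis, log2 CPM), with colours for role groups. In the grey areas the gap exceeds both within-group differences, which holds for 5 of 33 members, Npas4 and Egr2 among those above 0 and Crem and Ier3 below it.

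The libraries fell into an order that crossed the genotypes. Control 2 was the lowest library for 27 of 33 members (28.5% of all genes) and knockout 2 the highest for 25 (27.2% of all genes). Both held in 22 members, or 66.7% beside 12.4% of all genes. The full order knockout 2, control 1, knockout 1, control 2, from high to low, was shared by 18 members, among them Fos, Fosb, Jun, Atf3, Egr1 and Arc. Control 1 exceeded control 2 in 32 members by a median log2 difference of 0.78, and knockout 2 exceeded knockout 1 in 31 by 0.91. Between genotypes, knockout 1 was above control 1 in only 5 members (median -0.33), while knockout 2 was above control 2 in 30 (median 1.18). Knockout 2 was above control 1 in 25 (median 0.64), and knockout 1 was above control 2 in 29 (median 0.52). Of the 4 knockout-control pairs, the pair of knockout 1 and control 1 alone had a negative median. Over all genes tested these 6 medians lay between -0.002 and 0.01, but the scaling holds such medians near 0. The median absolute difference in these pairs was 0.19 to 0.25 over all genes tested and 0.35 to 1.18 over the members.

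**Figure D2:**
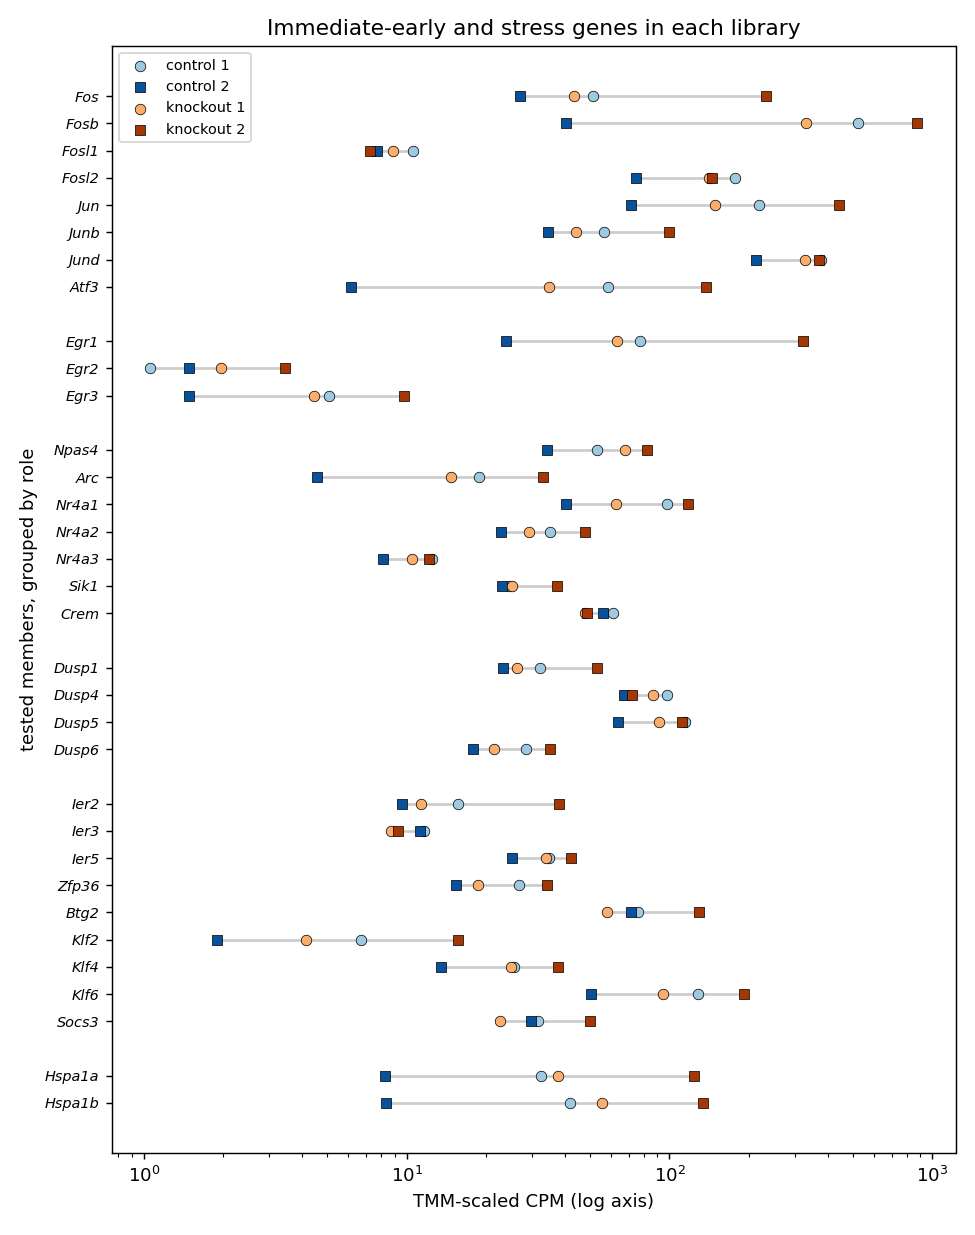
TMM-scaled CPM (log axis) of the 33 tested members in each library, blue for control and orange for knockout, circles for replicate 1 and squares for replicate 2, with a grey bar over the range. Dark blue squares (control 2) sit at the low end for 27 members and dark orange squares (knockout 2) at the high end for 25.

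The markers of acinar cells, which make digestive enzymes and surround the islets, followed the same order. Their 13 genes summed to 74.6 CPM in control 2, 1380 in knockout 1, 3069 in control 1 and 6599 in knockout 2, and in all 12 that were tested control 2 was lowest and knockout 2 highest. Cel, the carboxyl ester lipase gene, measured 8.68, 168, 351 and 820 CPM in that order of libraries. Control and knockout overlapped in this sum. In bulk RNA, more acinar cells and more acinar RNA per cell cannot be told apart. The part of acinar RNA in the members' levels was not tested.

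**Figure D3:**
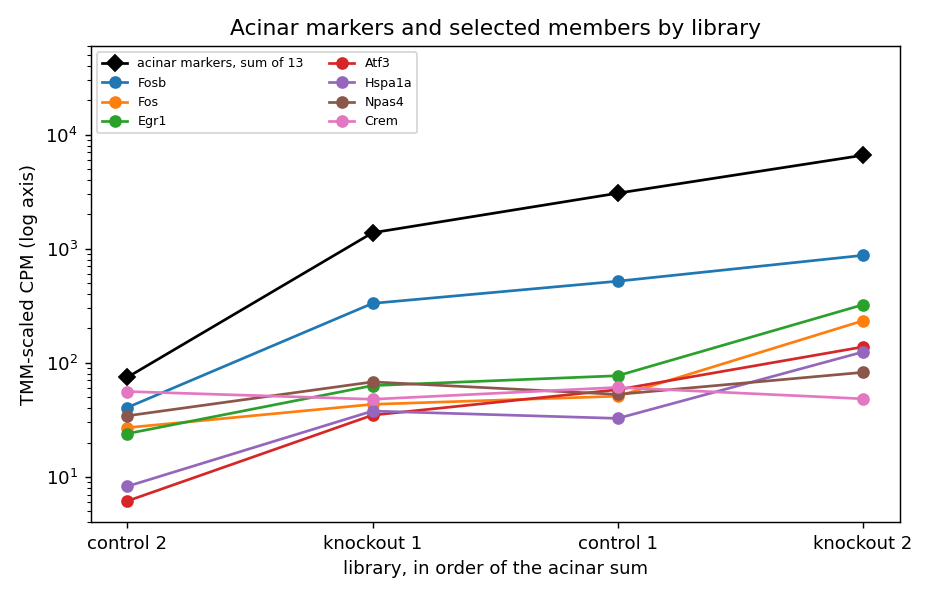
TMM-scaled CPM (log axis) of 7 members and of the sum of 13 acinar markers in each library, with libraries placed by the acinar sum from 74.6 to 6599 CPM. Fos, Fosb, Egr1 and Atf3 follow the order of the sum, Npas4 and Hspa1a exchange the middle libraries, and Crem stays between 47.9 and 60.9 CPM.

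The other cell type lists spread less. Endothelial markers (12 genes, 11 tested) summed to 569 and 587 CPM in control and 487 and 562 CPM in knockout. Stellate, pericyte and fibroblast markers (12 genes, 10 tested) summed to 257 and 301 CPM in control and 196 and 244 CPM in knockout. Macrophage and leukocyte markers (15 genes, 13 tested) summed to 126 and 103 CPM in control and 89.4 and 76.9 CPM in knockout, with a negative log2 fold change in all 13. Of these, 5 had an unadjusted p under 0.05 in edgeR, beside 1.96% of all genes with knockout lower, and 0 were called. Ductal markers (11 genes, 9 tested) summed to 1564 CPM in both control libraries and 1382 and 1208 CPM in knockout. Most of this sum came from Krt8 (537 to 759 CPM) and Krt18 (305 to 379 CPM), so it says little about the lower markers. Krt19 (0.66 to 1.76 CPM) and Sox9 (1.16 to 1.65 CPM) were low, and Mmp7 was at 0 in every library. Spp1 spread more, at 44.6 and 171 CPM in control and 19.0 and 48.0 CPM in knockout. In none of these 4 sums was control 2 the lowest library or knockout 2 the highest, and their part in the members' levels was not tested.

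AP-1 is a dimer of Fos and Jun family proteins that binds DNA at early-response genes, and Atf3 is a related stress-induced factor. None of the 8 genes was called, their log2 fold changes ran from -0.17 to 1.83 with a median of 0.84, and control 2 was lowest in 7. The median was 0.28 without control 2 and 0.13 without knockout 2. Fos, the inducible partner of Jun, measured 51.0 and 27.0 CPM in control 1 and 2 and 43.2 and 234 CPM in knockout 1 and 2. Knockout 2 alone was high, and knockout 1 lay between the control libraries. The log2 fold change of Fos was 1.83 ± 1.18 (SE), with a 95% confidence interval from -2.59 to 6.25, and it was 0.15 without knockout 2 and 1.44 without control 2. Fosb, which can accumulate under lasting stimulation, measured 519 and 40.5 CPM in control and 332 and 875 CPM in knockout, a 21.6-fold range. The control libraries lay on either side of knockout 1, and the log2 fold change was 1.11 ± 1.72 (95% interval -5.66 to 7.88). It was 0.22 without control 2, 0.24 without knockout 2 and 3.89 without control 1. Atf3 measured 58.1 and 6.14 CPM in control and 34.8 and 138 CPM in knockout. Its range of 22.4-fold was the widest of the tested members, and the log2 fold change of 1.43 ± 1.64 was 0.12 without knockout 2, 0.56 without control 2 and 3.80 without control 1. Jun measured 219 and 71.6 CPM in control and 149 and 440 CPM in knockout (log2 fold change 1.02 ± 0.998, 0.035 without knockout 2 and 0.43 without control 2). Junb, a Jun relative that dampens Jun activity in some settings, measured 56.3 and 34.4 CPM in control and 44.2 and 99.9 CPM in knockout (0.67 ± 0.50, -0.036 without knockout 2 and 0.35 without control 2). All of these groups overlapped.

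The less inducible family members varied less across libraries. Jund, which many cells express at rest, measured 377 and 214 CPM in control and 328 and 372 CPM in knockout (log2 fold change 0.25 ± 0.26). Fosl2 measured 178 and 74.3 CPM in control against 141 and 145 CPM in knockout (0.19 ± 0.44, and -0.31 without control 2). Fosl1 measured 10.6 and 7.73 CPM in control and 8.90 and 7.27 CPM in knockout (-0.17 ± 0.26). Only control 2 stood apart in Jund and Fosl2, and no library did in Fosl1. Scaled to the length of their annotated exons, Jund had the highest level of all members at 193 CPM per kb, before Fosb at 70.7 and Jun at 68.9. Exons of Jund, Fosl1, Jun and Junb overlap a gene on the opposite strand (Gm11175 over 52.6% of Jund's exon length and Ccdc85b over 57.2% of Fosl1's). Gm11175 counted 2609 and 1666 in control and 2612 and 2291 in knockout, beside 3197 and 2018, and 3171 and 2815, for Jund. Whether both drew on the same reads was not tested. Since no source used here says whether counting used strand, the counts of these 4 members are uncertain, and so is the rank of Jund per kb. The same holds for 5 members described below, Dusp5 (22.1% of its exon length), Hspa1a (19.0%), Crem (8.01%), Zfp36 (3.60%) and Dusp1 (0.332%).

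The Egr genes encode zinc-finger factors induced through serum response factor. Egr1, the most abundant of them, measured 77.0 and 23.9 CPM in control 1 and 2 and 63.1 and 323 CPM in knockout 1 and 2. Knockout 2 was far above the rest and knockout 1 lay within the control range. The log2 fold change was 1.93 ± 1.34 (95% interval -3.22 to 7.09), and it was 0.32 without knockout 2 and 1.32 without control 2. Egr3 measured 5.07 and 1.48 CPM in control and 4.45 and 9.78 CPM in knockout (log2 fold change 1.11 ± 0.62, and 0.46 without either knockout 2 or control 2). Egr2 was low, with counts of 9 and 14 in control against 19 and 26 in knockout, or 1.06 and 1.48 against 1.97 and 3.43 CPM. Both knockout libraries were above both controls, and control 1, not control 2, was lowest. Its log2 fold change was 1.05 ± 0.45 (unadjusted p = 0.0486 and adjusted p = 0.9997 in edgeR), and it was 0.62 without knockout 2 and 1.31 without control 2. Egr4 was not tested, with counts of 6 and 1 in control against 8 and 13 in knockout. The 3 tested Egr genes had a median log2 fold change of 1.11, and 0.46 without knockout 2.

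The activity-regulated and CREB-target genes are those that calcium entry and cyclic AMP induce in excitable cells. Of the 7, 6 had a positive and 1 a negative log2 fold change, with a median of 0.39, and 0 were called. The median was 0.13 without control 2 and 0.020 without knockout 2. Npas4, a factor induced by depolarisation and calcium entry in neurons and beta cells and little by other stimuli, had the smallest unadjusted p of all members. It measured 52.8 and 34.3 CPM in control 1 and 2, or 43.6 ± 13.1 (SD, n = 2), and 68.0 and 82.4 CPM in knockout 1 and 2, or 75.2 ± 10.2 (SD, n = 2). Both knockout libraries were above both control libraries, by a gap of 0.81 against within-group differences of 0.62 and 0.28 on the log2 scale. The log2 fold change was 0.79 ± 0.22 (95% interval 0.29 to 1.29), with an unadjusted p of 0.00695 and an adjusted p of 0.9997 in edgeR. It was 0.51 without control 2 and 0.64 without knockout 2. With no low-count filter edgeR called Npas4 (adjusted p = 0.00223, log2 fold change 0.80), and over its other alternatives the adjusted p ran from 0.0536 without control 1 to 0.99999 in DESeq2. The higher level of Npas4 was already a known pattern of these libraries when the members were listed.

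Of the remaining genes of this group, Sik1 had the library order of Npas4 and the other 5 did not. Arc, which encodes an activity-regulated cytoskeletal protein, measured 18.9 and 4.55 CPM in control and 14.8 and 33.0 CPM in knockout, in the library order of Fos, with a log2 fold change of 1.03 ± 0.88. It was 0.33 without control 2, 0.35 without knockout 2 and 2.37 without control 1. The orphan nuclear receptor gene Nr4a1 measured 98.1 and 40.2 CPM in control and 62.4 and 117 CPM in knockout (0.38 ± 0.60, -0.15 without knockout 2 and -0.13 without control 2). Its relative Nr4a2 measured 35.0 and 22.9 CPM in control and 29.3 and 47.8 CPM in knockout (0.41 ± 0.29, 0.018 without knockout 2 and 0.13 without control 2). Nr4a3 stayed between 8.15 and 12.5 CPM. In these 4 genes the groups overlapped. Sik1, a kinase gene that CREB induces and that restrains CREB coactivators, measured 24.5 and 23.0 CPM in control and 25.2 and 37.4 CPM in knockout. The groups touched without overlapping, and the log2 fold change was 0.39 ± 0.21 (0.088 without knockout 2 and 0.35 without control 2). Crem, whose inducible short product represses CREB targets, measured 60.9 and 56.0 CPM in control and 47.9 and 48.4 CPM in knockout. Both knockout libraries were below both controls, with a log2 fold change of -0.28 ± 0.14 (95% interval -0.59 to 0.032) that ran from -0.34 to -0.22 with any library left out. The gene-level count does not separate the inducible Crem product from the longer ones.

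Npas4 was set against the general early genes in each library. Each gene was taken relative to its own mean over the 4 libraries, and the median of the 11 tested AP-1, Atf3 and Egr genes was subtracted. The difference for Npas4 was -0.36 in control 1, 0.46 in control 2, 0.22 in knockout 1 and -0.60 in knockout 2 on the log2 scale. It was positive in 1 library and negative in the other of each genotype. The general genes themselves stood at 0.26, -1.17, 0.04 and 1.14 in that order. The range of Npas4 across libraries was 2.40-fold, below that of 8 of the 11 general genes (8.65-fold for Fos) and above that of Fosl1, Jund and Fosl2 (1.46-fold to 2.39-fold). The groups did not overlap in the CPM of Npas4 itself. Crem, which varied only 1.27-fold, gave a difference of 1.25 in control 2 and -1.27 in knockout 2. A gene with a smaller swing than the general genes gets such signs, so the difference cannot decide whether Npas4 separates the genotypes. With 2 libraries a group, the smallest two-sided p of an exact permutation test is 0.333, so no test of this difference was made.

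**Figure D4:**
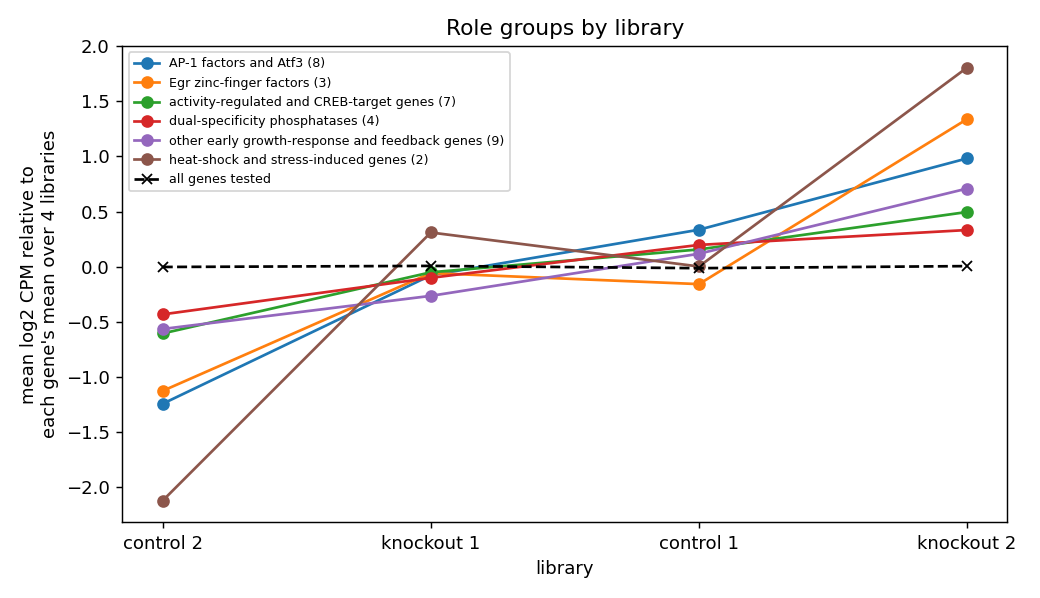
Mean log2 CPM of the tested genes of each role group (number in brackets) relative to each gene's mean over the 4 libraries, with libraries in the order of the acinar sum and lines joining the values of a group. In every group control 2 is lowest and knockout 2 highest, from -2.12 and 1.81 in the heat-shock pair to -0.43 and 0.33 in the phosphatases. All genes tested stay near 0, where the scaling holds them.

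The dual-specificity phosphatases switch off the MAP kinases that induce immediate-early genes. Of the 4 tested, 3 had a positive and 1 a negative log2 fold change (median 0.23), 0 were called, and control 2 was lowest in all 4. The median was -0.098 without control 2 and -0.025 without knockout 2. Dusp1, which acts on stress kinases, measured 32.2 and 23.3 CPM in control and 26.3 and 53.0 CPM in knockout (log2 fold change 0.51 ± 0.36, -0.077 without knockout 2 and 0.29 without control 2). Dusp6, which acts on ERK, measured 28.4 and 17.9 CPM in control and 21.5 and 35.0 CPM in knockout (0.28 ± 0.30, -0.10 without knockout 2 and -0.015 without control 2). In both genes only knockout 2 lay above the control range. Dusp5 measured 115 and 63.6 CPM in control and 91.0 and 112 CPM in knockout (0.19 ± 0.28), and Dusp4 measured 97.4 and 66.9 CPM in control and 86.7 and 72.0 CPM in knockout (-0.048 ± 0.20). Their knockout values lay within the control range. Dusp2, best known from lymphocytes, was not tested, with counts of 5 and 1 in control against 1 and 2 in knockout.

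The other early growth-response and feedback genes, 9 in number, had a median log2 fold change of 0.35, with 8 positive and 1 negative and 0 called. The median was -0.15 without knockout 2 and 0.18 without control 2. Klf2, Klf4 and Klf6 encode Krüppel-like factors. Klf6 measured 129 and 50.3 CPM in control and 94.1 and 192 CPM in knockout (0.68 ± 0.68, 0.071 without knockout 2 and 0.15 without control 2). Klf4 measured 25.6 and 13.5 CPM in control and 24.9 and 37.6 CPM in knockout (0.68 ± 0.34, 0.35 without knockout 2 and 0.28 without control 2). Klf2, which is also an endothelial gene, measured 6.72 and 1.91 CPM in control and 4.14 and 15.7 CPM in knockout (1.19 ± 0.92, -0.044 without knockout 2 and 0.53 without control 2). The groups overlapped in all 3, with knockout 2 at the top. Ier2 measured 15.7 and 9.63 CPM in control and 11.4 and 38.0 CPM in knockout (0.95 ± 0.71, -0.15 without knockout 2 and 0.64 without control 2). Ier5, a regulator of the heat-shock response, measured 34.7 and 25.2 CPM in control and 34.04 and 42.3 CPM in knockout (0.35 ± 0.20, 0.19 without knockout 2 and 0.14 without control 2). Ier3 went the other way, at 11.7 and 11.2 CPM in control and 8.69 and 9.25 CPM in knockout. Its groups did not overlap, and the log2 fold change of -0.35 ± 0.21 (95% interval -0.83 to 0.13) ran from -0.40 to -0.30 with any library left out.

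Zfp36, Btg2 and Socs3 end early responses, by destroying unstable mRNAs, by slowing the cell cycle and by blocking cytokine signals. Zfp36 measured 26.7 and 15.5 CPM in control and 18.7 and 34.3 CPM in knockout (log2 fold change 0.33 ± 0.37, -0.17 without knockout 2 and -0.015 without control 2). Btg2 measured 76.1 and 71.1 CPM in control and 58.0 and 129 CPM in knockout (0.34 ± 0.38, and -0.34 without knockout 2). Socs3 measured 31.7 and 29.7 CPM in control and 22.7 and 49.8 CPM in knockout (0.23 ± 0.36, and -0.44 without knockout 2). In Btg2 and Socs3 the control libraries were alike and the knockout libraries lay on either side of them.

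Hspa1a and Hspa1b encode the inducible HSP70 chaperone, which heat-shock factor 1 switches on when proteins unfold. Hspa1a measured 32.6 and 8.26 CPM in control 1 and 2 and 37.8 and 124 CPM in knockout 1 and 2. Hspa1b measured 41.9 and 8.36 CPM in control and 55.5 and 134 CPM in knockout. In both genes the knockout libraries were above the control libraries, but knockout 1 was close to control 1. The log2 fold changes were 1.99 ± 1.18 for Hspa1a, the largest of the members, (95% interval -2.35 to 6.34) and 1.92 ± 1.16 for Hspa1b (-2.36 to 6.21). Without knockout 2 they were 0.89 and 1.15, without control 2 they were 1.31 and 1.18, and without control 1 they were 3.28 and 3.50. The genes are near-identical copies, with 58.8% of the 50-base windows of the Hspa1a transcripts also in those of Hspa1b, so reads can be split between them and they are 1 observation rather than 2. Their promoters, printed above, shared 89.2% of 20-base windows. Exons of Hspa1a also overlap Gm20481 on the opposite strand over 19.0% of their length. Gm20481 counted 114 and 33 in control and 146 and 399 in knockout, beside 276 and 78, and 365 and 942, for Hspa1a. Gdf15, a secreted stress cytokine of the integrated stress response, was not tested, with counts of 9 and 12 in control against 5 and 7 in knockout. It did not share the library order of the heat-shock genes.

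Related genes outside the members were read from 4 further lists. Of 26 other immediate-early genes, 0 were called, and 21 had a positive and 5 a negative log2 fold change (median 0.32). Control 2 was lowest and knockout 2 highest in 13 of the 26, beside 12.4% of all genes. The smallest unadjusted p in this list belonged to Plk2 (-0.58 ± 0.16), Ccn2 (-1.03 ± 0.48) and Tob1 (0.32 ± 0.17). Plk2, a polo-like kinase gene, measured 29.3 and 30.6 CPM in control and 21.3 and 18.6 CPM in knockout. Ccn2, a target of mechanical signalling, ran against the members, with 15.03 CPM in control 2 and 3.83 CPM in knockout 2. Of 15 other heat-shock genes, 0 were called and the median was 0.10, with 10 positive and 5 negative. In 4 of the 15, control 2 was lowest and knockout 2 highest, beside 12.4% of all genes. Hspb1 (-0.32 ± 0.20), Dnajb4 (0.44 ± 0.27) and Hsph1 (0.43 ± 0.31) had the smallest p. Hsph1 measured 334 and 170 CPM in control and 336 and 342 CPM in knockout, so control 2 alone was low.

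The kinases and factors upstream of the members varied least of the 4 lists. Of 24 such genes, 0 were called, and 14 had a positive and 10 a negative log2 fold change (median 0.041). In 4 of the 24, control 2 was lowest and knockout 2 highest, beside 12.4% of all genes. The summed level of the 24 genes ran from 2611 to 2880 CPM, a 1.10-fold range. The calcium-dependent kinase gene Camk4 (1.16 ± 0.51) was high in knockout 1 alone, at 7.35 CPM against 1.77 to 2.75 in the other libraries. Hsf2 (0.29 ± 0.13) and Hsf1 (0.33 ± 0.18) followed. The integrated stress response, with 12 genes, had a median of -0.029, with 5 positive, 7 negative and 0 called. Control 2 was lowest and knockout 2 highest in 2 of the 12, beside 12.4% of all genes. Ddit3 (0.39 ± 0.23), Asns (-0.21 ± 0.14) and Ddit4 (-0.29 ± 0.25) had the smallest p in that list.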

How the data were processed

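The authors deposited raw counts per Ensembl gene for 4 islet libraries. HISAT2, featureCounts and GRCm39 are named per the submitters' processing notes, without versions. The annotation, strand setting and handling of multimapped reads were not given in the sources used. Per the labels' protocols, islets were kept in Trizol and libraries made with a directional kit. Symbols came from GENCODE M21 (GRCm38), which named 52403 of 52636 identifiers, and exon lengths came from the same release.

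Counts were filtered with filterByExpr (minimum count 10), scaled by TMM and tested in edgeR 4.0.16 (R 4.3.3) with the quasi-likelihood test (robust dispersion, two-sided, no covariate), adjusted by Benjamini-Hochberg over all genes and called under 0.05. SE and 95% intervals come from that fit. DESeq2 1.42.0 and limma 3.58.1 were alternatives. The code was tested on simulated data. Libraries of a group differed by more than counting noise (chi-square over its degrees of freedom, 12.9 for control and 13.3 for knockout), so none was treated as a repeat deposit of another. Pairs across genotypes gave 7.08 to 20.0, and these values do not show that the libraries are independent. Members, role groups and lists were chosen with earlier results of these data known. Named genes were Tspan7, every member, and up to 3 genes per context list by unadjusted p, of which the acinar list gave Cel. The ductal genes Mmp7, Krt8, Krt18, Krt19, Sox9 and Spp1 were named after their values were seen.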

Additional observations from a re-analysis of the deposited data

How the results depend on the processing

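With other scalings, filters and tools, 0 members were called except Npas4 with no low-count filter (1 of 36 tested). Genes called numbered 1, against 62 with no low-count filter, 6 in DESeq2, 6 with the replicate block and from 1 to 48 with a library left out (48 without control 1). The block left 0 members called. The labels do not say whether replicate numbers pair the libraries. Within-group differences (replicate 1 minus replicate 2) correlated at -0.30 between the genotypes over all genes tested. This value cannot decide the pairing, since library-wide differences such as that in acinar markers enter it. A crossed pairing, added after the data were seen, called 2 genes, Tspan7 and 1 member, Hspa1a. With 1 library left out, the lone library of a group is assumed to vary like the other group. The median log2 fold change then ran from 0.46 to 2.23 for the Egr genes, -0.098 to 0.66 for the phosphatases and 1.02 to 3.39 for the heat-shock pair. Of 33 members, 15 changed sign in at least 1 such fit. Their ranges were Fosl1 -0.39 to 0.068, Fosl2 -0.31 to 0.94, Junb -0.036 to 1.14, Jund -0.11 to 0.71, Nr4a1 -0.15 to 1.15, Nr4a3 -0.15 to 0.46, Dusp1 -0.077 to 0.94, Dusp4 -0.30 to 0.25, Dusp5 -0.18 to 0.67, Dusp6 -0.10 to 0.65, Ier2 -0.15 to 1.59, Zfp36 -0.17 to 0.77, Btg2 -0.34 to 0.81, Klf2 -0.044 to 2.34 and Socs3 -0.44 to 0.70. The causes were not tested. The count of members by library order was 22, also under plain CPM, and 23 of 36 with untested members. The count by gap was 5, also under plain CPM and other prior counts. Egr4, Dusp2 and Gdf15 were too shallow for a test.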
